A study of Homo sapiens with 6 samples.

Results

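This account covers 10 immediate early genes, FOS, FOSL1, FOSL2, JUN, JUNB, EGR1, ATF3, IER2, IER3 and KLF6, in T98G, a human glioblastoma cell line. The members were the rows of the deposited expression table with these gene names: all 10 were found among the 35750 genes listed. 9 of them reached a mean of at least 1 FPKM, a fragment count divided by gene length and sequencing depth, across the 6 libraries, and these were tested with 11841 genes in all. FOS did not reach that level. The series compares 3 libraries labelled shControl, from cells with a control short hairpin RNA, with 3 labelled shSLC1A5, from cells with a short hairpin RNA against SLC1A5, a transporter that carries glutamine into the cell. All 6 came from cells kept in medium with fetal serum, the labels name no other allele, agent or time point, and nothing in them states that replicates were grown separately. The p-values therefore speak of variation among 6 libraries, part or all of which could be technical.

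Immediate early genes are switched on within minutes of a growth factor, serum or stress signal, without the need for new protein. This works through factors already present in the cell, such as serum response factor and its partners. The FOS and JUN proteins pair through leucine zippers into the AP-1 transcription factor, in which JUN proteins can also pair with one another while FOS proteins need a JUN partner. EGR1 and KLF6 are zinc finger transcription factors, ATF3 is a stress-induced relative of the AP-1 proteins that responds to ATF4, and IER2 and IER3 are small nuclear or membrane-associated products of the same early wave. IER3 is known mainly as a regulator of cell survival rather than as a transcription factor. FOSL1, also called FRA-1, is the AP-1 subunit often linked to the mesenchymal state in glioblastoma.

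Promoter sequence is shown for 4 members. Of these, 3 share an 8-base element of the CRE and AP-1 kind, and the other carries sites for serum response factor. Each line gives the 250 bases before the RefSeq start, 5′ to 3′ on the gene's strand, on GRCh38.p14, with TGACATCA or CArG boxes, the sites bound by serum response factor, in capitals.
ATF3: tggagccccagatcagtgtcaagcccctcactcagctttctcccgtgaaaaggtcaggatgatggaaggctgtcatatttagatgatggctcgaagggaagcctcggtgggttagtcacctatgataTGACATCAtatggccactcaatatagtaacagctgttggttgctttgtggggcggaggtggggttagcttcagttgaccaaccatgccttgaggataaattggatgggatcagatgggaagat
KLF6: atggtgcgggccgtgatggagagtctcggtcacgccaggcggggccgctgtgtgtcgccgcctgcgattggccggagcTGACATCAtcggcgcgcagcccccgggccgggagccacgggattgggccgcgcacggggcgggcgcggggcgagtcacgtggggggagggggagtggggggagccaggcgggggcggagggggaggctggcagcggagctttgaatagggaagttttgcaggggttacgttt
JUN: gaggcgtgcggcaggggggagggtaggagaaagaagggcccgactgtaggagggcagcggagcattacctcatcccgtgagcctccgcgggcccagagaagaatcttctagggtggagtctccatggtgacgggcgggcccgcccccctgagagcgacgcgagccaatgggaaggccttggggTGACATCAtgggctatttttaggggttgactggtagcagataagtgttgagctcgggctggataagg
EGR1: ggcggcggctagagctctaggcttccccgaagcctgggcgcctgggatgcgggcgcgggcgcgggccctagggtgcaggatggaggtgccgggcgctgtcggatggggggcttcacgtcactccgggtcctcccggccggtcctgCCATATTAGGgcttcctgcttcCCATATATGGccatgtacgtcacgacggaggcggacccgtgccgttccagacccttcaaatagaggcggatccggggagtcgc
The windows lie at chr1:212565157-212565406 (plus strand) for ATF3, chr10:3785210-3785459 (minus strand) for KLF6, chr1:58784048-58784297 (minus strand) for JUN and chr5:138465229-138465478 (plus strand) for EGR1.

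The element TGACATCA began 123 bases before the RefSeq start in ATF3, 172 in KLF6 and 67 in JUN. The ATF3 window ends at 212565406, inside the gene as listed for the counts, which starts at 212565334. The ATF3 distance therefore holds for that RefSeq start alone. TGACATCA was present on either strand in 3 of the 8 members with a window in the RefSeq table, beside 2.38% of all 35114 windows of that length. EGR1 held CArG boxes beginning 105 and 83 bases before its start, CCATATTAGG and CCATATATGG, and a CArG box was present in 1 of 8 members and 1.16% of all windows. The full palindrome TGACGTCA was in 0 of 8 members (1.65% of windows) and the AP-1 element TGANTCA in 0 of 8 (6.57%). The amino acid response motif TGATGNAA was in ATF3 alone among the 8 (3.14% of windows). These motifs were searched on both strands and chosen after the sequences had been read, and a match describes the letters alone. Sequence outside the windows was not searched. The counts therefore cannot tell whether a member without a match, FOS included, holds such a site farther upstream. A second ATF3 window, at an inner start, held neither TGACATCA nor a CArG box.

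The libraries held 59327548 to 70802167 counts. SLC1A5 itself was at 95.8 ± 1.15 FPKM (SD, n = 3) in the libraries labelled shControl and 87.9 ± 0.407 in those labelled shSLC1A5. The groups did not overlap, and the targeted transcript fell by 9.02% (95% interval -11.5% to -6.44%), a log2 fold change of -0.14. The size depended on the fit: after GC content and length were corrected for it was -0.34 (adjusted p = 3.51e-07, edgeR) and -0.10 under quantile normalization with limma. Directions below are those of the libraries as labelled. Of 10 glial and mesenchymal glioblastoma markers, 4 reached 1 FPKM, led by VIM and CD44. Of the rest, OLIG2 had 160 to 208 counts, CHI3L1 28 to 188 and NES 32 to 92. GFAP, SOX2 and S100B had at most 28, 10 and 3 counts in any library. Counts of 10 neutrophil markers summed to 16 to 33 in shControl and to 4163, 70 and 52 in shSLC1A5 replicates 1, 2 and 3, with MPO at 0 in all 6 libraries. In the same order, B cell markers, 9 of 10 found, summed to 22 to 40 against 1285, 644 and 1043. Red cell markers, 6 of 9 found, summed to 0 to 6 against 1087, 20 and 7. Monocyte markers, 6 of 8 found, summed to 115 to 135 against 908, 95 and 82. T and NK cell markers, 6 of 8 found, summed to 3 to 12 against 57, 30 and 29, with CD3E at 0. Immediate early genes are expressed in blood cells too, and the part of such transcripts in the results below was not tested.

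Of the 9 tested members, 2 fell (ATF3 and KLF6) and 3 rose (FOSL2, JUN and JUNB) at an adjusted p under 0.05 in edgeR's quasi-likelihood test. Over all tested genes 19.0% fell, 20.2% rose and 39.2% differed in either direction. The median log2 fold change of the 9 was 0.10, beside -0.01 for all tested genes, and single members ran from -0.66 to 0.50. The 2 falls were the largest called differences, -36.7% and -26.0%, and the 3 rises were of 9.08% to 16.4%. All 3 rises lost their calls when GC content and length were corrected for, a fit in which 0 members were called higher and 3 lower (ATF3, KLF6 and FOSL1). Without shSLC1A5 replicate 1, 2 members still fell and 2 rose, beside 1911 and 2071 of all tested genes. FOSL2 was the one lost (adjusted p = 0.10, edgeR). In 6 of 9 members the FPKM of the groups did not overlap, 3 higher and 3 lower, beside 49.6% of tested genes, 27.3% higher and 22.3% lower. In bulk RNA, fewer cells expressing a gene and less RNA per cell cannot be told apart.

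**Figure D1:**
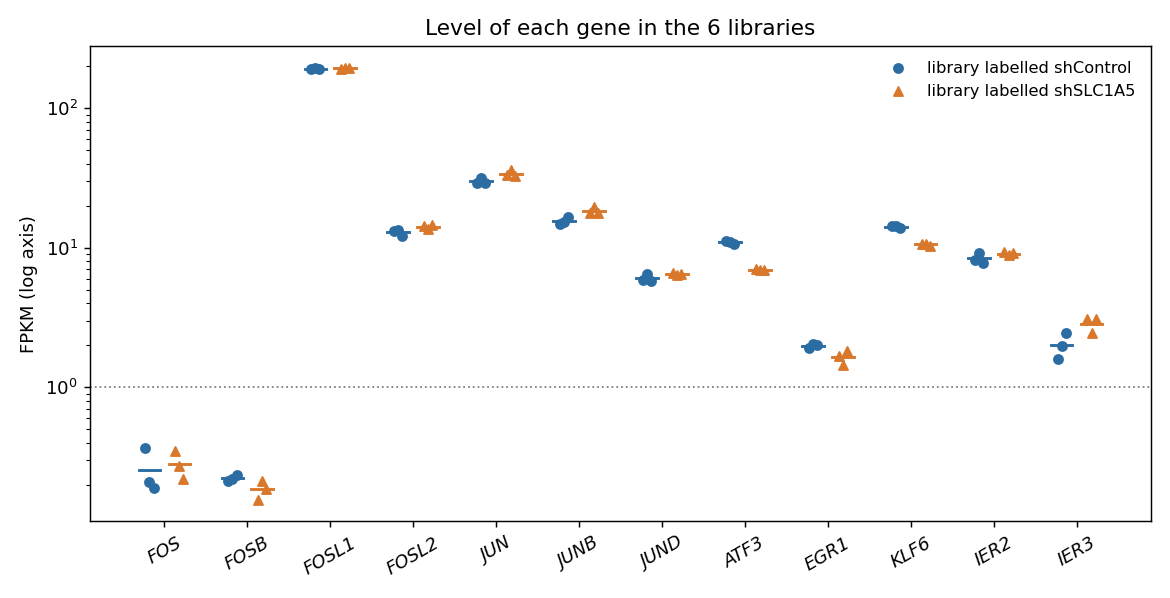
FPKM of the 10 members and of FOSB and JUND in each library (log axis; points, libraries; short lines, means of 3; dotted line, the minimum of 1 FPKM for testing). FOSL1 stood at 189.9 to 196 FPKM in all 6 libraries, FOS and FOSB under 1, and the groups separated most for ATF3 and KLF6.

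Per kilobase of gene model, FOSL1 was by far the most abundant member, at rank 126 of 11841 tested genes, and EGR1 and FOS, the classic serum-inducible genes, were at the bottom of the order. In shControl the order of mean FPKM was FOSL1 (192), JUN (29.9), JUNB (15.5), KLF6 (14.2), FOSL2 (12.9), ATF3 (10.9), IER2 (8.38), IER3 (2.00), EGR1 (1.99) and FOS (0.255). IER3 and EGR1 overlapped in that group and cannot be ordered. All other neighbours were apart in each library of the group. In shSLC1A5 KLF6 stood below FOSL2, and ATF3 below IER2, in all 3 libraries. IER3 stood above EGR1 in all 3 as well.

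ATF3 (ENSG00000162772, chromosome 1, 212565334 to 212620772, plus strand), a stress-induced bZIP protein that represses or activates according to its partner, had the largest fall. Its FPKM was 11.1, 10.9 and 10.7 in shControl and 7.02, 6.89 and 6.93 in shSLC1A5, from 2867 to 3211 and 2103 to 2273 counts. Every shSLC1A5 library lay well below every shControl library. The log2 fold change was -0.66 (SE 0.041, adjusted p = 8.29e-07, edgeR), a percent change of -36.7% with a 95% interval of -40.6% to -32.6%. It ranked 129 of the 11841 tested genes in order of fall. ATF3 kept its call and direction in all 18 alternative fits, at -0.68 to -0.58.

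KLF6 (ENSG00000067082, chromosome 10, 3775996 to 3785209, minus strand), a Krüppel-like zinc finger factor, was at 14.3, 14.3 and 13.9 FPKM in shControl and 10.7, 10.7 and 10.3 in shSLC1A5. The groups were again apart, with gaps between groups many times the spread within them. Its log2 fold change was -0.44 (SE 0.036, adjusted p = 5.53e-06, edgeR), a percent change of -26.0%, at rank 331 in order of fall. It also held in all 18 alternatives, at -0.45 to -0.39.

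EGR1 (ENSG00000120738, chromosome 5, 138465479 to 138469303, plus strand), the zinc finger factor used as a readout of ERK and serum response factor activity, was low throughout. It had 1.92, 2.03 and 2.01 FPKM in shControl and 1.66, 1.45 and 1.82 in shSLC1A5, from 346 to 449 counts. The 3 shSLC1A5 values all lay below the shControl values. The log2 fold change of -0.28 (SE 0.131, 95% interval -0.57 to 0.01) did not pass the test (adjusted p = 0.112, edgeR). Quantile normalization with limma was the only one of 17 alternatives to call it, at -0.36 (adjusted p = 0.0388).

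The JUN genes encode the partners that FOS proteins need. Of these genes, JUN (ENSG00000177606, chromosome 1, 58780791 to 58784047, minus strand) was at 29.3, 31.4 and 29.1 FPKM in shControl. In shSLC1A5 it was at 33.0, 36.0 and 32.6 FPKM. The groups did not overlap, but the lowest shSLC1A5 library stood only a little above the highest shControl library. The log2 fold change was 0.17 (SE 0.042, adjusted p = 0.0103, edgeR).

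JUNB (ENSG00000171223, chromosome 19, 12791486 to 12793315, plus strand), a JUN protein that is a weaker activator and can restrain JUN, was at 14.7, 15.3 and 16.6 FPKM in shControl and 17.7, 19.5 and 17.6 in shSLC1A5. The groups were apart by less than the range within either of them. Its log2 fold change was 0.22 (SE 0.060, adjusted p = 0.0139, edgeR). Without shSLC1A5 replicate 2, its highest library, the call was lost (adjusted p = 0.0649). JUND, the remaining JUN gene and no member of the set, was at 5.82, 6.43 and 5.81 FPKM against 6.61, 6.34 and 6.48, with overlapping groups and a log2 fold change of 0.09 (adjusted p = 0.423, edgeR).

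Among the FOS genes, FOSL1 (ENSG00000175592, chromosome 11, 65892049 to 65900419, minus strand) was at 189.9, 194 and 192 FPKM in shControl and 192, 196 and 193 in shSLC1A5. The libraries of the 2 groups were interleaved. Its log2 fold change was 0.00 with a 95% interval of -0.04 to 0.04 (adjusted p = 0.978, edgeR), that is a change of -2.59% to 2.77%. Quantile normalization with limma called it higher, at 0.07 (adjusted p = 0.00650), and edgeR with the GC and length correction called it lower, at -0.17 (adjusted p = 5.67e-05). With 24046 to 29022 counts it was the most precisely measured member.

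FOSL2 (ENSG00000075426, chromosome 2, 28392448 to 28417312, plus strand), which encodes FRA-2, was at 13.1, 13.3 and 12.2 FPKM in shControl and 14.3, 13.6 and 14.6 in shSLC1A5. The groups did not overlap, by a margin of a small part of 1 FPKM. The log2 fold change was 0.13 (SE 0.042, adjusted p = 0.0361, edgeR). 4 of the 6 fits that left out a library lost that call: those without replicate 1 (adjusted p = 0.0581) or 3 (0.132) of shControl and without replicate 1 (0.10) or 3 (0.121) of shSLC1A5. A minus strand gene, FLJ31356, and a plus strand gene, AC104695, overlap it in the table with at most 32 counts in any library, beside 5822 to 8208 counts for FOSL2.

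FOS (ENSG00000170345, chromosome 14, 75278826 to 75282230, plus strand), the prototype of the class, had 84, 49 and 43 counts in shControl and 92, 67 and 56 in shSLC1A5. These are 0.365, 0.210 and 0.190 FPKM against 0.350, 0.274 and 0.220, with overlapping groups. FOS was tested only where the expression minimum was removed, with a log2 fold change of 0.12 (adjusted p = 0.890, edgeR). FOSB, the remaining FOS gene, was as low, at 0.222 ± 0.0121 and 0.185 ± 0.0290 FPKM (SD, n = 3), and at -0.29 in the same fit (adjusted p = 0.546).

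The other 2 members did not pass the test. IER2 (ENSG00000160888, chromosome 19, 13150411 to 13154911, plus strand), a nuclear protein, was at 8.12, 9.20 and 7.83 FPKM in shControl and 9.26, 8.81 and 9.10 in shSLC1A5, at 0.10 on the log2 scale (adjusted p = 0.262, edgeR). IER3 (ENSG00000137331, chromosome 6, 30743199 to 30744548, minus strand) was at 1.59, 1.96 and 2.45 FPKM in shControl and 3.06, 2.44 and 3.06 in shSLC1A5. Its lowest shSLC1A5 library lay just below the highest shControl library. IER3 had the largest positive difference of the 9, 0.50, and also the largest SE, 0.191, from 155 to 331 counts (adjusted p = 0.0612, edgeR). It passed in 5 of 17 alternatives, among them DESeq2 (adjusted p = 0.0300), limma on log2(FPKM + 1) (0.0450) and the edgeR fit without shControl replicate 3 (0.0314). The plus strand genes HCG20 and IER3-AS1 overlap it with up to 24 and 8 counts, and since no strand setting is given for the counting its count is uncertain by that much.

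**Figure D2:**
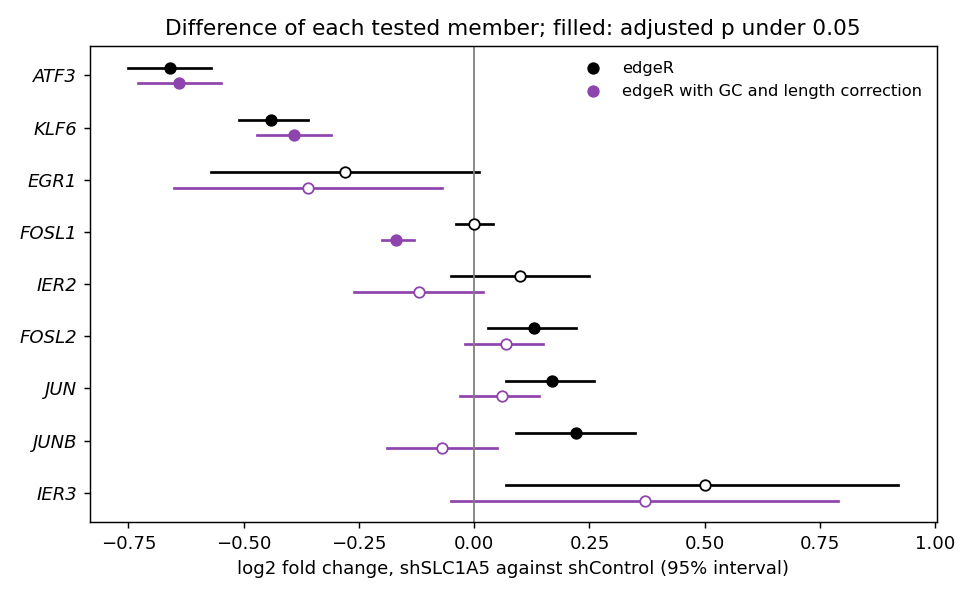
Log2 fold change of the 9 tested members with 95% intervals, from edgeR (black) and from edgeR with a correction for GC content and length (purple), filled where the adjusted p is under 0.05. ATF3 and KLF6 were lower in both fits, whereas JUN, JUNB and FOSL2 were called only in the first and FOSL1 only in the second.

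The differences varied with the base composition of the transcripts. Over 11800 tested genes the log2 fold change had a Spearman correlation of 0.49 with GC content, a description across genes that share the same 6 libraries. The members ranged from 45.9% GC in KLF6 and 50.8% in ATF3 to 56.7% in JUN, 60.0% in FOSL1, 61.7% in IER2 and 64.9% in JUNB. When a smooth function of GC content and length was removed from each library, JUN was at 0.06, FOSL2 at 0.07 and JUNB at -0.07 (adjusted p = 0.349, 0.236 and 0.388, edgeR). ATF3 and KLF6 were at -0.64 and -0.39 (adjusted p = 1.05e-06 and 1.37e-05). FOSL1 was then lower, at -0.17 (adjusted p = 5.67e-05), as was JUND at -0.32 (adjusted p = 0.0211).

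With that correction 3 of 9 members were called lower, beside 14.7% of tested genes, and 0 higher, beside 11.1% (25.8% in either direction). At an unadjusted p under 0.05 the edgeR fit with the correction likewise had 0 higher and 4 lower, beside 1966 and 2474 of 11841 tested genes. Without the correction DESeq2 called 4 members higher, beside 2585 of all tested genes, and limma on log2(FPKM + 1) called 4, beside 2388. The median of the 9 moved from 0.10 to -0.12. Whether the trend with GC content arose in the libraries or in the cells was not tested.

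**Figure D3:**
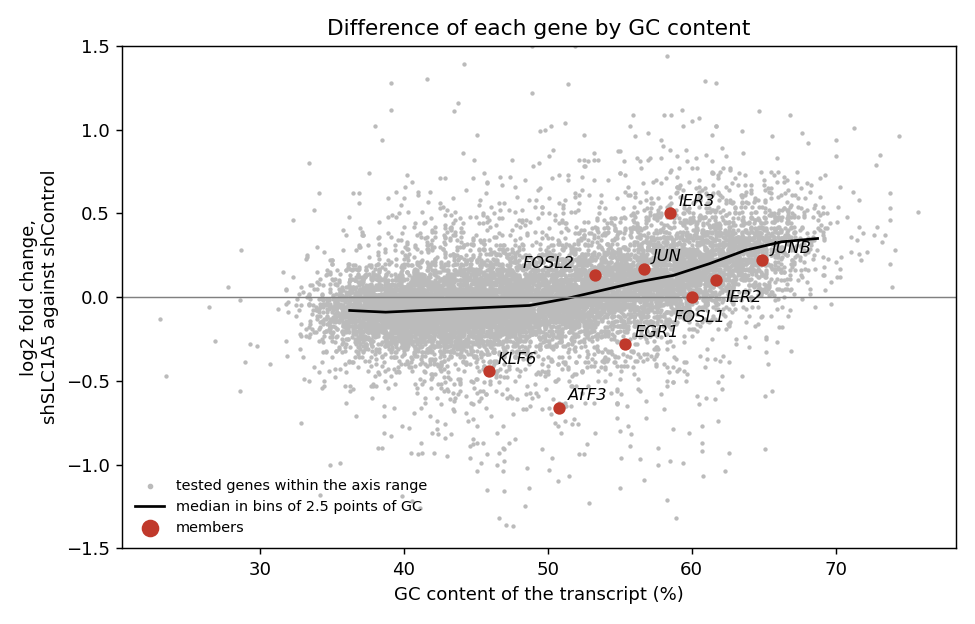
Log2 fold change against the GC content of the transcript for tested genes (grey; those beyond the axis range are left out), with the median in bins of GC content (line) and the 9 tested members (red). JUNB, JUN and IER2 lay near the line, FOSL1 below it, and ATF3, KLF6 and EGR1 farther below.

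A scaling factor common to all genes of a library leaves the make-up of each AP-1 family unchanged. No share of FPKM differed by more than 1 percentage point between group means. The shares were not corrected for GC content and length, and some genes of a family moved apart with that correction. On the log2 scale it put FOSL1 at -0.17 and FOSL2 at 0.07, and JUND at -0.32 and JUN at 0.06. How far it would shift the shares was not tested. FOSL1 held 93.3%, 93.4% and 93.8% of the summed FPKM of FOS, FOSB, FOSL1 and FOSL2 in shControl and 92.8%, 93.3% and 92.8% in shSLC1A5. FOSL2 held 6.26% ± 0.242 and 6.79% ± 0.286 (SD, n = 3), and FOS 0.124% ± 0.0477 and 0.135% ± 0.0322. Without a scaling for length the difference in the FOSL2 share was larger, 1.44 percentage points in place of 0.529. Of JUN, JUNB and JUND, JUN held 58.1% ± 1.43 and 57.8% ± 0.349, JUNB 30.2% ± 1.82 and 31.1% ± 0.365, and JUND 11.7% ± 0.424 and 11.1% ± 0.712.

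Of the 7 shares tested, FOSL2 and FOSB gave p = 0.1 in an exact two-sided permutation test, the smallest value that 3 libraries against 3 allow, and 0.35 after Benjamini-Hochberg adjustment. The FOSB share was 0.108% ± 0.00618 and 0.0887% ± 0.0133. The other 5 gave p from 0.2 to 0.8. The summed FPKM of the JUN genes was 49.9, 53.1 and 51.5 in shControl and 57.3, 61.8 and 56.7 in shSLC1A5, while that of the FOS genes was 204, 208 and 204 against 207, 209.8 and 208.

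**Figure D4:**
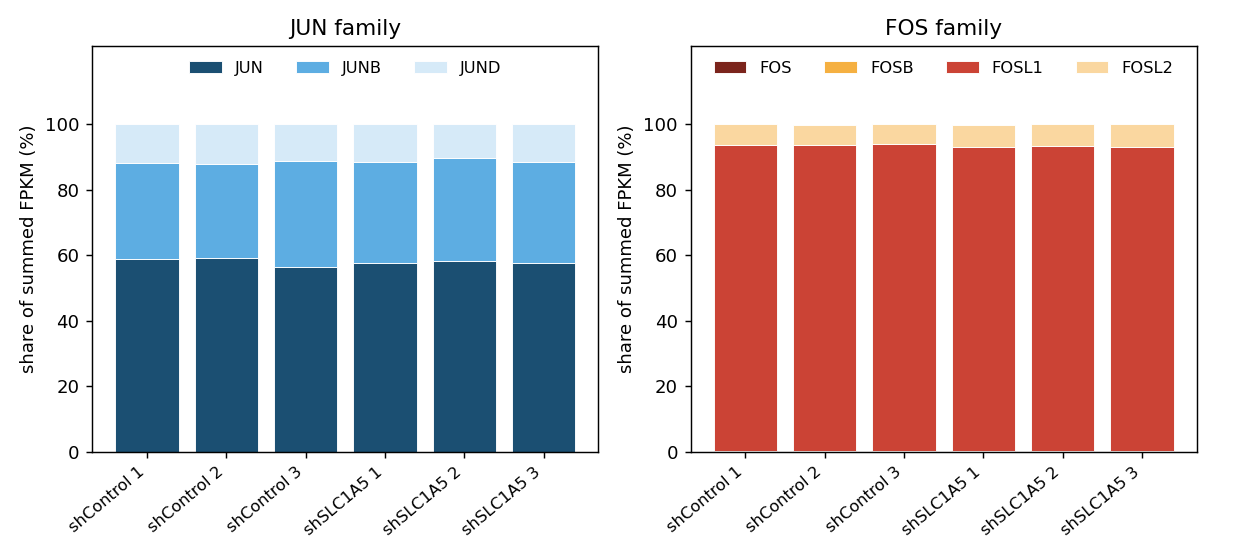
Share of each gene in the summed FPKM of the JUN family (left) and the FOS family (right) in each library. JUN held over 56% and FOSL1 over 92% in all 6 libraries; FOS and FOSB, at under 0.2% each, are too thin to see.

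The members were also described by transcript features that their choice did not use. A single exon made up the reference transcript of 4 of the 9 tested members (JUN, JUNB, IER2 and IER3), beside 1.93% of 10361 tested coding genes. The pentamer ATTTA, the core of the AU-rich elements through which early transcripts are degraded, was in the 3′ UTR of 8 of the 9, beside 73.6% of tested coding genes, with 9 copies in FOSL2, 6 in KLF6 and IER3, 3 in ATF3 and JUN, and 0 in IER2. The nonamer TTATTTATT, which contains that pentamer, was in FOSL2 alone of the 9 tested members, beside 9.37% of tested coding genes. FOS, not tested, held it too. Copies did not order the members by difference, since KLF6 fell and FOSL2 rose with many.

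Lists of genes that act with or around the members differed in the counts of their calls. Of 17 upstream regulators tested, 4 rose and 0 fell, with a median log2 fold change of 0.01. None was lower at an unadjusted p under 0.05 in edgeR (0) or called lower by DESeq2 (0), while 1 was called lower without shControl replicate 3. MAP2K2 (MEK2) was at 0.25, RPS6KA1 (RSK1) at 0.21, MAPK3 (ERK1) at 0.20 and MRTFA, a coactivator of serum response factor, at 0.13. All 4 lost their calls after the GC and length correction, at -0.05, 0.08, -0.01 and -0.10. With that correction 1 gene of the list was called lower and 1 higher, both named here after their values were seen. SRF, serum response factor itself, went from -0.06 (adjusted p = 0.358) to -0.28 (adjusted p = 0.000987, edgeR), and MRTFB, a coactivator of it, from 0.12 (adjusted p = 0.0574) to 0.17 (adjusted p = 0.0105). MRTFA also lost its call without single libraries, with adjusted p up to 0.0845.

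Of 14 other AP-1 partners and bZIP proteins tested, 4 rose and 4 fell, with a median of 0.03, and 1 rose and 5 fell with the GC and length correction. CEBPD, a C/EBP protein induced by cytokines and stress, rose from 16.8 ± 1.34 to 32.6 ± 0.862 FPKM (SD, n = 3), at 0.94 on the log2 scale (adjusted p = 1.38e-06, edgeR), or 0.52 after the correction. MAFF, a small MAF protein that is itself an early gene, fell from 7.71 ± 0.0254 to 5.72 ± 0.0957 FPKM. CEBPB was at 0.35, or 0.03 with its call lost after the correction, and CEBPG, a partner of ATF4, fell by 0.28. MAFK, at 0.11, was chosen after its values were seen: it was called higher without the correction and lower with it, at -0.16. MAFG, named on the same ground, was at 0.22 and lost its call with the correction, at 0.08 (adjusted p = 0.120, edgeR).

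Of 17 other rapid-response transcriptional regulators tested, 10 rose and 4 fell, with a median of 0.15. The 10 became 4 without shControl replicate 2, 5 without shSLC1A5 replicate 3, 6 without shControl replicate 3 or shSLC1A5 replicate 2, and 6 with the GC correction. NR4A3, an orphan nuclear receptor, fell from 1.96 ± 0.0690 to 1.06 ± 0.142 FPKM, a log2 fold change of -0.90. ID1 and ID3, inhibitors of basic helix-loop-helix factors, rose by 0.56 and 0.34. IER5L, a relative of IER2, was at 0.70, or at 0.40 with its call lost after the correction (adjusted p = 0.0915, edgeR). EGR2, EGR3, NR4A1 and NR4A2 were below 1 FPKM, as FOS was, and were not tested. NR4A1, singled out after its values were seen, was at 0.217 ± 0.0236 FPKM in shControl and 0.405 ± 0.00563 in shSLC1A5, without overlap of the groups.

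Of 16 feedback and decay genes tested, 5 fell and 2 rose, with a median of -0.08. SPRY2, an inhibitor of receptor tyrosine kinase signalling, fell from 12.0 to 7.62 FPKM, at -0.67 on the log2 scale (adjusted p = 1.63e-06, edgeR). The phosphatases DUSP6, which acts on ERK, and DUSP10, which acts on JNK and p38, fell by 0.47 and 0.41, and BTG1, an antiproliferative gene, fell by 0.44. The 2 that rose, named after their values were seen, were SPRY4 at 0.29 and NAB2, an EGR corepressor, at 0.40. With the GC and length correction SPRY4 kept its call, at 0.25, and NAB2 lost it, at 0.16. DESeq2 and limma on log2(FPKM + 1) each called 4 of the list higher.

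Of 18 other rapidly induced genes tested, 10 fell and 3 rose, with a median of -0.23. CCN2 and CCN1, matricellular proteins made on serum and mechanical signals, fell by 1.07 and 0.96 on the log2 scale, and HBEGF, a ligand of the EGF receptor, fell from 8.15 ± 0.0183 to 4.70 ± 0.0688 FPKM. PTGS2, the inducible cyclooxygenase, rose by 0.62.

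Of 18 genes classically regulated by AP-1, 10 fell and 4 rose, with a median of -0.14. With the GC and length correction 11 were lower and 1 higher, the rises of TIMP1, TGFB1 and DNMT1, named after their values were seen, being lost (0.12, 0.01 and 0.00). SPP1, osteopontin, was at -0.87 and fell from 8.32 ± 0.568 to 4.59 ± 0.315 FPKM. IL11, a cytokine, was at -0.77 and HMOX1, heme oxygenase, at -0.67 (adjusted p = 0.00148 and 1.75e-06, edgeR). MMP1, the interstitial collagenase and a textbook AP-1 target, was chosen after its values were seen and rose from 45.0 to 68.5 FPKM. These counts stand beside the 19.0% of genes that fell and 20.2% that rose overall.

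**Figure D5:**
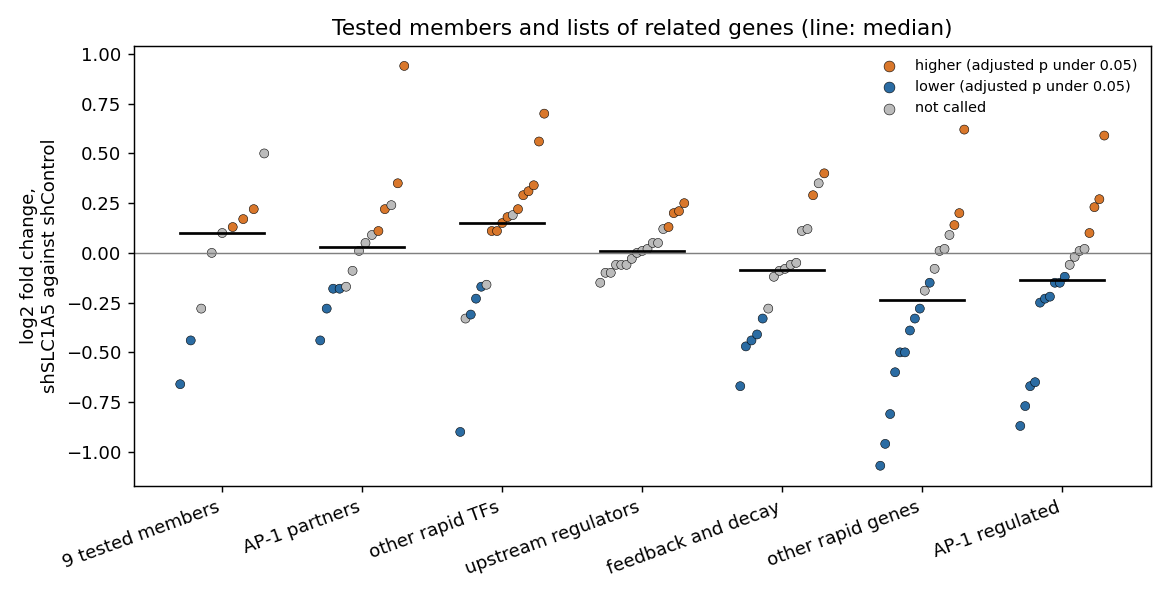
Log2 fold change of the tested members and of the tested genes in 6 lists of related genes (points, genes; lines, medians; orange and blue, higher and lower at an adjusted p under 0.05). The members ran from -0.66 to 0.50, and the lists of other rapidly induced genes and of AP-1 regulated genes had 10 of 18 genes lower each.

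The mean of the 9 tested members, each centred on its own mean, varied little, from -0.053 in shSLC1A5 replicate 2 to 0.042 in shControl replicate 2 on the log2 scale. The genes whose log2 CPM followed it most closely over the 6 libraries were BCL2L11 (Pearson r 0.995), MFSD14A (0.990), TMEM35B (0.989), INTS6 (0.981) and IDE (0.977). They were picked as the highest correlations among the tested genes, over only 6 libraries. How high r rises by such picking without any link was not tested. None of these 5 was called by edgeR, with adjusted p from 0.247 to 0.601, although MFSD14A passed without shControl replicate 1 (0.0280). Because members that fell and members that rose offset one another, this mean describes none of them.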

How the data were processed

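The authors deposited 1 table with counts per gene and FPKM for 6 libraries, per the file headers, and the submitters' processing notes name fastp, HISAT2 and StringTie. Build, annotation, strand setting and tool roles: not given in the sources used here. GENCODE 29 holds 34674 of the 35750 gene IDs, of which 99.88% lie on that gene in GRCh38. Columns headed NC were taken as shControl and those headed sh as shSLC1A5, with numbers as titled. The members and lists were chosen with earlier results of these data known.

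Genes averaging 1 FPKM or more were tested with edgeR 4.0.16 in R 4.3.3 (TMM, group alone, quasi-likelihood F test, Benjamini-Hochberg adjustment over 11841 genes, threshold 0.05). The SE is the log2 fold change over the square root of F. The GC and length correction fitted loess (span 0.3) to each library's deviations, with the longest coding GENCODE 29 transcript (or the longest), known for 99.7% of tested genes, as edgeR offsets. DESeq2 1.42.0 and limma 3.58.1 were run as alternatives, and shares were tested with SciPy 1.17.1. The steps were tested on simulated data. Replicate pairs had a chi-square per gene of 9.82 to 16.7, above counting noise, so none was merged. The named list genes are up to 4 called genes of largest change per list, 1 of which is not reported here, and the 5 likest genes were ranked by Pearson correlation. Promoters are from RefSeq, GRCh38.p14.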

Additional observations from a re-analysis of the deposited data

How the results depend on the processing

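ATF3, KLF6 and SLC1A5 kept call and direction in all 18 alternatives run, SLC1A5 at -0.34 to -0.10. After correcting for GC content and length, 1316 genes were called higher in place of 2396, and 1245 with that correction and the replicate block; 0 members were called higher in place of 3 in both. Under those 2 fits the log2 fold change of FOSL1 became -0.17 and -0.16, of JUNB -0.07 in both, of IER2 -0.12 in both and of JUND -0.32 in both. MAP2K2 became -0.05 and -0.06, MAPK3 -0.01 in both, MRTFA -0.10 in both, INTS6 0.04 in both and IDE 0.02 in both; the cause was not tested. FOSL1, at 0.00, also changed sign with no expression minimum (-0.01) and without single libraries (-0.0029 to 0.01), all values near 0. With CPM in place of FPKM the shSLC1A5 minus shControl difference in family share was -0.0526 percentage points for FOSB, -1.40 for FOSL1 and 1.44 for FOSL2, which follows from the scaling for length. Without single libraries 2027 to 2158 genes were called higher and 1836 to 1923 lower, and 2 to 3 members higher and 2 lower. Libraries of like number correlated in their deviations at -0.151, 0.0356 and -0.0343 over tested genes, so no shared deviation by number was seen. The labels do not say whether samples of like number were prepared together, and these values cannot settle it. With the replicate block 2311 genes were called higher and 2159 lower. Low counts limit FOS, FOSB, EGR1 and IER3.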
